A study of Mus musculus with 16 samples.

Results

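This account follows 39 genes for molecular chaperones and chaperonins, the proteins that help other proteins reach and keep their folded shape. The members are a list of gene symbols chosen by known function, with earlier results of these data already in view, and were matched to the gene column of the count table. All 39 were among the 23410 symbols listed, and all 39 passed the filter on low counts, which left 10080 genes to test. By role they were 8 subunits of the CCT ring, 4 prefoldin subunits, 4 cytosolic HSP70 and HSP110 genes, 6 cytosolic J proteins, 2 BAG exchange factors, 2 cytosolic HSP90 genes, 4 HSP90 co-chaperones, 5 mitochondrial chaperones, 3 chaperones of the endoplasmic reticulum and the heat shock factor Hsf1.

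The samples came from G1E-ER4, a mouse erythroid progenitor line that lacks its own GATA1 and carries GATA1 joined to the region of the estrogen receptor that takes up hormone. With hormone present, this fusion enters the nucleus and acts on GATA1 target genes. Cells received 0, 12.5, 25, 50, 75, 100, 150 or 200 nM beta-estradiol, with 2 Smart-seq2 libraries at each dose and 16 in all. Every group, 0 nM included, carries the fusion and grew with stem cell factor and erythropoietin. It is a single cell line. How long the cells were exposed was not stated in the labels. Those labels do not say whether the replicates came from separate cultures, so the p-values measure only the spread between these samples.

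Chaperones work in relays. HSP70 proteins bind short unfolded stretches in cycles driven by J proteins, which start ATP use, and by exchange factors such as the BAG proteins, which release the nucleotide. HSP90 takes over partly folded clients with the help of co-chaperones, while prefoldin hands actin and tubulin to the barrel-shaped CCT ring. Mitochondria and the endoplasmic reticulum keep their own sets, and HSF1 is the transcription factor that raises many of these genes under heat stress. In red cell precursors, HSP70 is known for protecting GATA1 itself from cleavage.

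At 200 nM most of the chaperone genes were lower than at 0 nM, with the mitochondrial set lowest, and a minority was higher. Of the 39 members, 28 were called lower, where 39.5% of all genes tested were lower, and 9 were called higher, where 40.5% of all genes were higher. Calls used edgeR's quasi-likelihood test with Benjamini-Hochberg adjusted p under 0.05. The median log2 fold change of the members was -0.82, against 0.02 over all genes tested. A change of at least 2-fold was called lower for 11 members, against 17.4% of all genes, and higher for 2, Bag1 and Pfdn5, against 19.7% of all genes. Only Dnaja1 and Cdc37 were not called in either direction at this dose. With any 1 of the 4 libraries left out, the 28 lower calls and 8 of the 9 higher calls held, the exception being Dnajb11. Together the members took 2.82% ± 0.0141 of all counts at 0 nM and 1.39% ± 0.00741 at 200 nM (SD, n = 2).

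**Figure D1:**
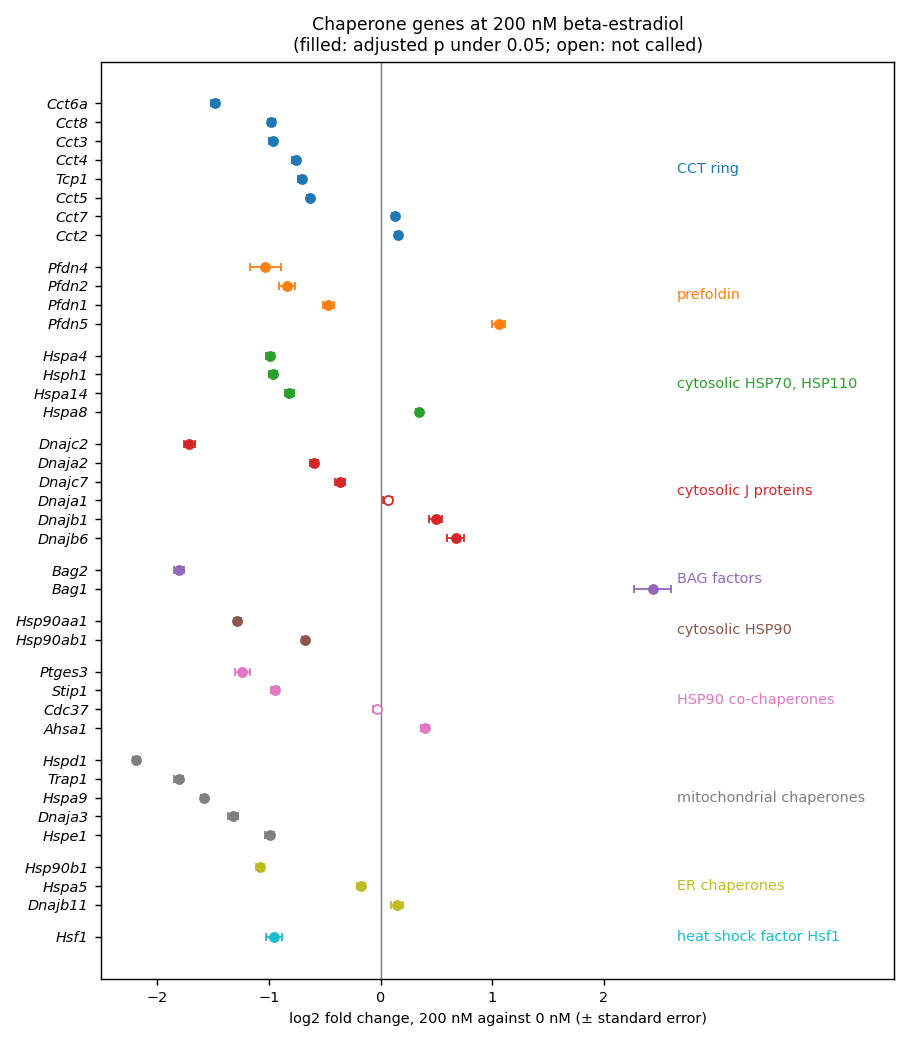
Log2 fold change at 200 nM against 0 nM for each of the 39 members, grouped by role. Points are estimates from 2 libraries per dose, bars are standard errors, and open points (Dnaja1 and Cdc37) were not called. The mitochondrial members lie between -2.19 and -0.99, and Bag1 at 2.44 lies far to the right of Bag2 at -1.81. Cct2, Cct7, Hspa8, Dnaja1 and Dnajb11 lie right of 0 here and turn negative when libraries are scaled by size alone.

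Total counts ran from 9393156 to 15802510 per library. The checks of the cells gave erythroid marker sums of 2515 to 2611 CPM (counts scaled to a common library size, here with TMM, the trimmed mean of M values) at 0 nM and 30244 to 30718 CPM at 200 nM, with 9 of 9 tested markers called higher. Megakaryocyte marker sums reached 18.8 CPM at 0 nM and 439 to 454 CPM at 200 nM, with 4 of 5 tested markers higher. Most of the 200 nM sum was Itgb3, with a mean of 404 CPM. Means of the other markers at 200 nM were 25.0 CPM for Gp9, 8.05 for Gp1ba, 6.68 for Pf4, 2.94 for Itga2b and 0 for Ppbp. Sums of mast cell, granulocyte, lymphocyte and of fibroblast and endothelial markers stayed under 3 CPM at both doses, and Mcpt8, Mpo, Lyz2, Cd3e, Col1a2, Col3a1 and Cdh5 were at 0 in all libraries. Globin genes took 0.151% of counts at 0 nM and 5.85% at 200 nM, and the ribosomal RNA gene Rn45s took 9.57% and 15.0%. With both left out of the TMM scaling, the same numbers of members were called at 200 nM, 28 lower and 9 higher. Gata1, which the fusion also carries, measured 711 CPM ± 62.2 at 0 nM and 1643 CPM ± 45.9 at 200 nM (SD, n = 2). In these bulk samples, fewer cells of a type and less RNA per cell cannot be told apart.

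Scaling changes the sign of small changes here. With libraries scaled by total size alone, the median over all genes tested moved from 0.02 to -0.36 on the log2 scale at 200 nM and that of the members to -1.20. The members then split into 33 lower and 3 higher, and all genes into 53.5% lower and 28% higher. The 3 that remained above 0 with a call were Bag1 (2.06), Pfdn5 (0.68) and Dnajb6 (0.29). Every value below is on the TMM scale unless it says otherwise. On that scale the 200 nM libraries of every member lay apart from those at 0 nM, below in 29 and above in 10. This held for Dnaja1 and Cdc37 too, which were not called. A gap between the libraries of these 2 doses therefore sets no member apart, and its share of all genes was not counted.

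The short DNA sites below show which of the members carry the letters that heat shock factor, E-box proteins or GATA factors are known to read near their gene starts. RefSeq promoter windows on GRCm38.p6, 250 bases before to 50 after a gene start, matched 31 of the 39 members. Pfdn1, Cct4, Hsp90aa1, Hsp90ab1, Hspa8, Hsf1, Dnajc2 and Hspa9 had no match. Heat shock factor trimers read repeats of the letters GAA in alternating orientation, so windows were searched on both strands for the pairs GAANNTTC and TTCNNGAA, which overlap each other in longer arrays. Either pair stood in 9 of 31 members (29.0%) and in 17.0% of 27025 genes in the table. Of those 9, Hspd1, Hspe1, Hsph1, Cct5 and Cct6a were called lower at 200 nM, Cct2 and Dnajb6 were called higher, and Dnaja1 and Cdc37 were not called. Of all 31 members with a window, 21 were lower, 8 higher and 2 not called. The Cct2 and Hspd1 pairs lie in windows of later starts inside those genes. By the gene bounds of GENCODE, the Dnaja1, Dnajb6, Cct6a and Hsph1 pairs also lie inside the genes. Capitals mark the matched pairs, each read 5′ to 3′ on the strand of the gene.
Hspe1, chr1:55088053-55088082, plus strand: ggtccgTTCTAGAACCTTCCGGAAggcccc
Hsph1, chr5:149636351-149636380, minus strand: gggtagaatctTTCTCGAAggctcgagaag
Hsph1, chr5:149636280-149636308, minus strand: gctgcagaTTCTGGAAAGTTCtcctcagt
Dnajb6, chr5:29735844-29735872, plus strand: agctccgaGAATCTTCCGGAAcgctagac
Dnaja1, chr4:40722333-40722362, plus strand: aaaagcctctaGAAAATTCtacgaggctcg
Cct2, chr10:117063399-117063428, minus strand: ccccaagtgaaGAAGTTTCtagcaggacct
Cct5, chr15:31601862-31601891, minus strand: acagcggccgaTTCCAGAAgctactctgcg
Cct6a, chr5:129787369-129787398, plus strand: gcgtaagacttTTCGAGAAgaccccgcaga
Cdc37, chr9:21150086-21150115, minus strand: tcggcgggaacTTCCAGAAggcctcaccac

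The Hspe1 site holds 3 overlapping matches. Hspd1 and Hspe1 lie head to head on chromosome 1, Hspd1 on the minus strand (GRCm38 55077835 to 55088243) and Hspe1 on the plus strand (55088132 to 55091307). Of the Hspd1 windows, the downstream one shares 285 bases with the Hspe1 window, so the site above stands in both. That Hspd1 window belongs to a later start inside the gene, and the window of the annotated Hspd1 start holds 0 pairs. The same letters on the Hspd1 strand read as the reverse complement.

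The E-box CACGTG, the letters that MYC with MAX is known to read, stood in 2 of 31 members (6.45%) and in 8.09% of genes. Both were called lower at 200 nM, as were 21 of the 31. Capitals mark the E-box.
Hspd1, chr1:55088306-55088335, minus strand: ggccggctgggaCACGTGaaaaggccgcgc
Hsph1, chr5:149636317-149636346, minus strand: aagcggaagtggCACGTGgaggcgccggtg

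GATA letters (AGATAA, its form AGATAG with a final G, TGATAA with a first T, or TGATAG with both, on either strand) stood in 5 of 31 members (16.1%) and in 33.0% of genes. Ahsa1, Dnajb1 and Dnajb6 were called higher at 200 nM, and Cct3 and Cct5 were called lower. The Dnajb1 and Cct5 matches lie in windows of later starts inside those genes, and are not printed. By the gene bounds of GENCODE, the Ahsa1 and Dnajb6 matches also lie inside the genes. Capitals mark the GATA letters, which in Dnajb6 and Cct3 are on the opposite strand. A match is a description of the letters and no evidence of binding.
Ahsa1, chr12:87266570-87266599, plus strand: taagagcttttaAGATAAactgagagagct
Dnajb6, chr5:29735866-29735895, plus strand: gctagaccagcgCTATCAagtccgacgcgc
Cct3, chr3:88296997-88297026, plus strand: atcatgccctctCTATCTaacttgccttgc

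Along the doses, the members changed little up to 25 nM and then moved step by step. Over all 7 dosed groups together, 39 of 39 members changed in the quasi-likelihood F test, as did 86.3% of all genes tested. At 12.5 nM, 0 members were called by edgeR in either direction, where 0.278% of all genes were higher and 0.228% lower. At an unadjusted p under 0.05, 7 members were higher and 0 lower at that dose, and DESeq2 called 0. The share of all genes at that unadjusted threshold was not counted, so the 7 cannot be set against it. At 25 nM only Hspa5 was called, as higher (3% of all genes), and 0 were lower (1.02%). At an unadjusted p under 0.05, again with no share of all genes counted, 5 members were higher and 0 lower there. DESeq2 also called 0 lower.

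At 50 nM, 8 members were higher (18.8% of all genes) and 7 lower (14.7%), with no change as large as 2-fold. The lower ones were Cct3, Dnajc2, Bag2, Hspd1, Trap1, Hsp90b1 and Hsf1, and the largest fall was 0.24 ± 0.03 on the log2 scale for Hsp90b1. The higher ones were Cct2, Pfdn4, Hspa8, Dnajb1, Bag1, Ahsa1, Hspa5 and Dnajb11. These counts rest on single libraries. Without the 0 nM replicate 2 library 2 members were higher, without the 50 nM replicate 1 library 3 were, and without either 0 nM library 4 were lower. In each of the 4 fits that left out 1 of these libraries, 2 of the 8 higher calls (Ahsa1 and Hspa5) and 3 of the 7 lower calls (Dnajc2, Trap1 and Hsp90b1) held.

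From 75 nM the lower calls dominated. At 75 nM, 26 members were lower (26.9% of all genes) and 5 higher (29%; 3 members without the 0 nM replicate 2 library). At 100 nM, 30 were lower (32.5%) and 7 higher (34.1%), and at 150 nM again 30 were lower (36.6%) and 7 higher (37.7%). The median log2 fold change of the members against 0 nM was -0.16 at 75 nM, -0.28 at 100 nM and -0.56 at 150 nM, while that of all genes tested stayed between 0.00 and 0.01.

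Neighbouring doses gave the same picture in steps. From 12.5 to 25 nM edgeR called 0 members in either direction (0.893% of all genes higher, 0.198% lower), and DESeq2 called 0. An unadjusted p under 0.05 was passed by 2 members, a threshold at which the share of all genes was not counted. From 25 to 50 nM, 12 members fell (12.1% of all genes) and 1, Ahsa1, rose (14.1%). Without the 25 nM replicate 2 library 6 fell, and without the 50 nM replicate 2 library 7 did.

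From 50 to 75 nM, 27 fell (15.8%) and 2, Bag1 and Ahsa1, rose (16.6%). Leaving out any 1 of the 4 libraries of that step left 0 or 1 of those rises called. From 75 to 100 nM, 23 fell (12.8%) and 3 rose (14.7%). Several of these falls rest on single libraries. Those of Tcp1, Cct4, Hsp90ab1 and Pfdn2 were lost whichever 1 of the 4 libraries was left out. From 100 to 150 nM, 27 fell (20.2%) and 3 rose (20.6%), or 1 without the 100 nM replicate 1 or the 150 nM replicate 1 library. From 150 to 200 nM, 26 fell (19.9%) and 9 rose (19.4%). Some calls of this step were also lost with 1 library left out, among them the rises of Bag1, Cct2, Cdc37 and Dnajb1.

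Few members were called outside the range between both ends of the dose series. By means alone, the highest dose was 12.5 nM for 18 members, 25 nM for 4, 50 nM for 6 and 150 nM for 1. It was 0 nM for 2 and 200 nM for 8, and the share of all genes was not counted. A gene counted as above or below both ends at a dose where it differed the same way from 0 nM and from 200 nM. At 12.5 nM 0 members were above (0.0198% of all genes) or below (0.0992%), and at 150 nM 0 were above (0.595%) or below (0.198%). At 25 nM 1 member, Hspa5, was above (0.288%) and 0 below (0.139%), and at 50 nM again only Hspa5 was above (1.3%) with 0 below (0.952%). At 75 nM Hspa5 was above (1.82%) and Dnaja1 and Cdc37 below (1.27%), and at 100 nM Hspa5 was above (1.69%) and Dnaja1 below (0.893%).

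The falls were spread over several steps. Of the 39 members, 9 fell in 5 of the 6 steps and 13 in 4 steps, while 8 fell in 0 steps. For 21 members the largest step was a fall from 100 to 150 nM. For 13 it was the step from 150 to 200 nM, a fall in 7 and a rise in 6 (Cct2, Cct7, Hspa8, Dnaja1, Dnajb1 and Dnajb6). These 2 steps span 50 nM each, where the 4 before them span 12.5 or 25 nM. The number of steps and the largest step were counted for the members alone. Whether other genes were spread over the steps in the same way was not tested.

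**Figure D2:**
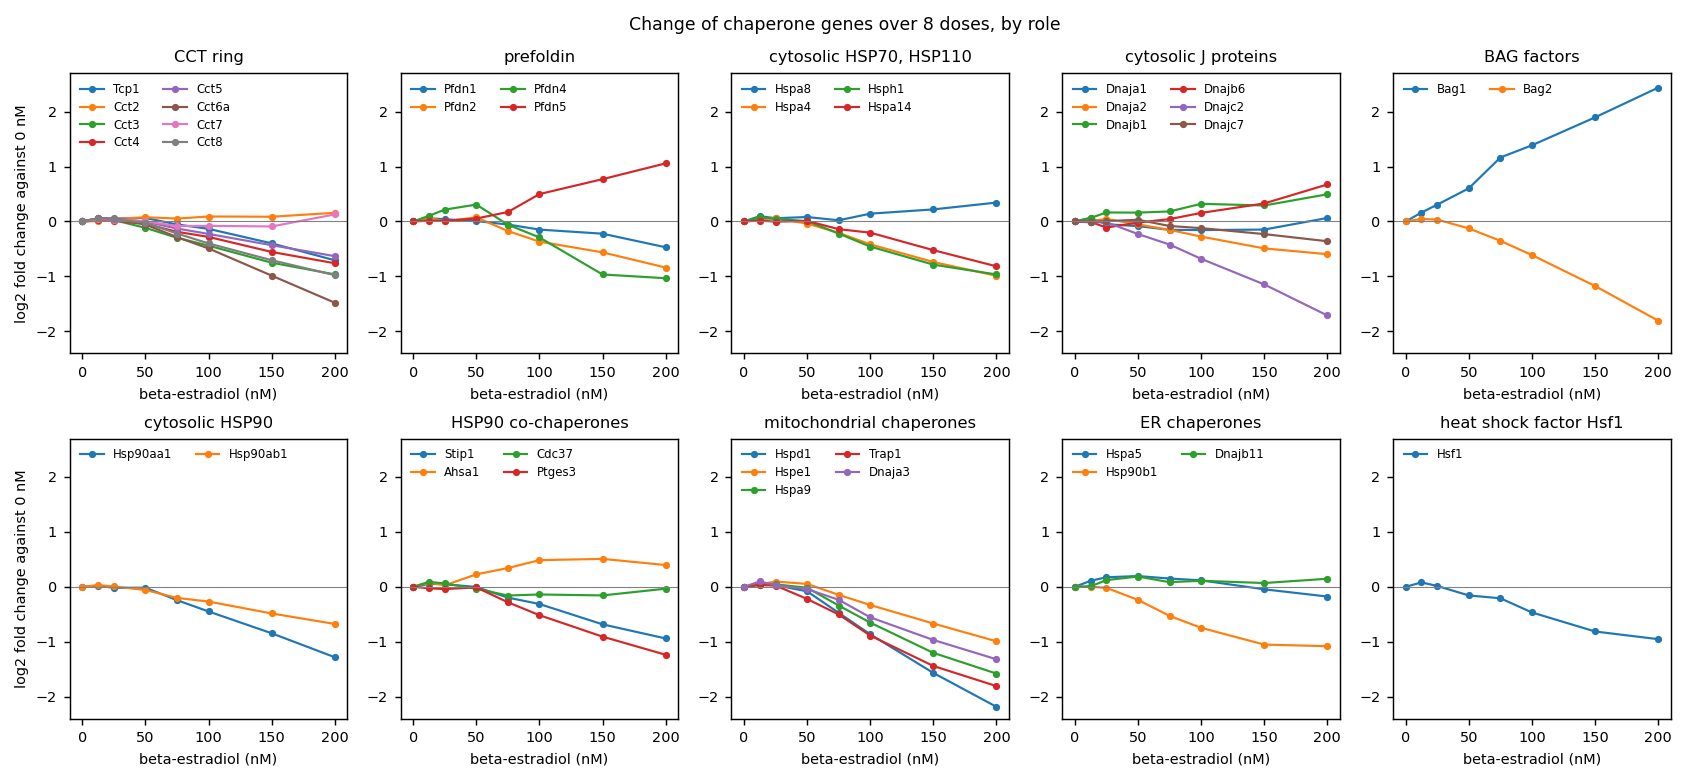
Log2 fold change against 0 nM at each dose, with 1 panel for each role and 1 line for each member. Most lines stay near 0 up to 25 nM and fall from 75 nM on, Bag1 and Pfdn5 rise, and Hspa5 rises to 0.20 at 50 nM before it falls to -0.18 at 200 nM.

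The CCT ring folds actin, tubulin and other cytosolic clients, and each ring holds all the different subunits. At 200 nM, 6 of its 8 subunit genes fell, with a median log2 fold change over the 8 of -0.73. Cct6a (zeta subunit) fell furthest. It measured 744 and 747 CPM at 0 nM, 534 and 527 CPM at 100 nM and 272 and 262 CPM at 200 nM, a log2 fold change of -1.48 ± 0.03 (SE, adjusted p = 1.13e-36). The libraries of these 3 doses did not overlap. Psph, on the other strand, covers 18.4% of the Cct6a exon bases, the counts are not known to keep strand, and Psph itself had a log2 fold change of -1.80.

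Cct8 (-0.98), Cct3 (-0.96), Cct4 (-0.76), Tcp1 (-0.71) and Cct5 (-0.63) fell less. Cct2 (beta subunit) measured 1092 and 1061 CPM at 0 nM and 1195 and 1207 CPM at 200 nM. Its log2 fold change was 0.16 ± 0.03 (adjusted p = 1.10e-06) and turned to -0.22 with library size alone.

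Cct7 (eta subunit) measured 1187 and 1167 CPM at 0 nM, 1122 and 1088 CPM at 150 nM and 1306 and 1267 CPM at 200 nM. It was called lower from 75 to 150 nM and higher at 200 nM (0.13 ± 0.03, adjusted p = 8.71e-05), which turned to -0.25 with library size alone. The lower calls at 75 and 100 nM were lost without the 0 nM replicate 1 library (adjusted p = 0.0925 and 0.0912) and without the replicate 2 library of the same dose (0.102 and 0.0943). The last step from 150 to 200 nM was a rise of 0.22 (adjusted p = 2.32e-08). The 200 nM libraries thus stand above those of every other dose.

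Shares within the ring do not depend on how libraries are scaled. Per exon base, Cct2 made up 13.7% ± 0.327 of the CCT counts at 0 nM and 22.0% ± 0.325 at 200 nM, and Cct7 went from 12.6% ± 0.194 to 19.8% (SD, n = 2). Cct6a went from 7.95% ± 0.00212 to 4.09% ± 0.0749, Cct8 from 15.2% to 11.0% and Cct3 from 11.4% to 8.37%. The highest share was 2.19 times the lowest at 0 nM, 2.64 times at 100 nM and 5.37 times at 200 nM. The transcripts of the ring thus became less equal in number as the dose rose.

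**Figure D3:**
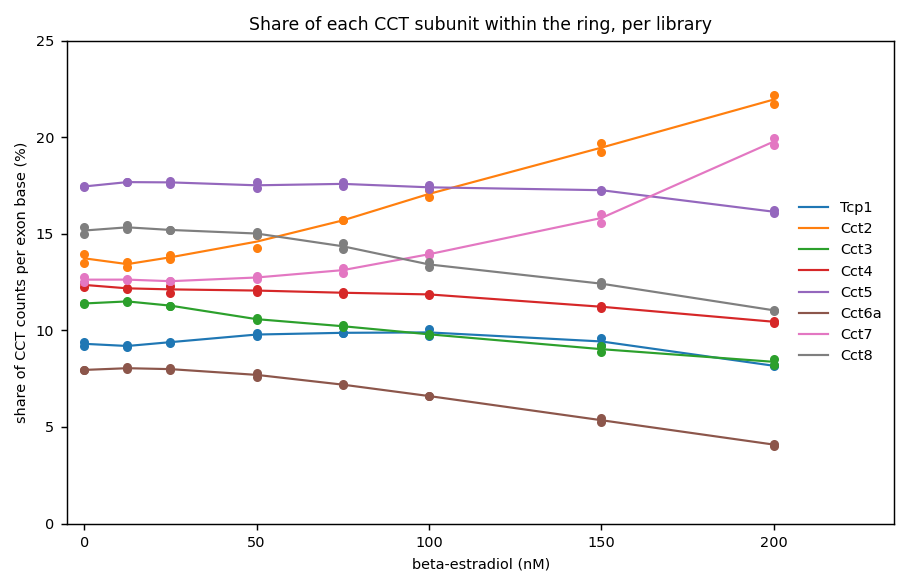
Share of each CCT subunit in the summed counts per exon base of the ring, for each library (points) and as the mean of the 2 libraries (lines). Cct2 and Cct7 end at 22.0% and 19.8%, above the other subunits, and Cct6a ends lowest at 4.09%.

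Prefoldin, the partner of CCT, split by subunit. Pfdn1 (-0.47), Pfdn2 (-0.84) and Pfdn4 fell, and Pfdn5 rose. Pfdn5, known also as a binding partner of MYC, measured 78.9 and 76.2 CPM at 0 nM, 107 and 113 CPM at 100 nM and 167 and 156 CPM at 200 nM. The log2 fold change at 200 nM was 1.06 ± 0.06 (adjusted p = 3.79e-22), or 0.68 with library size alone. All 100 nM and 200 nM libraries lay above those at 0 nM. Of the Pfdn5 exon bases, 11.9% are shared with Myg1 on the same strand, which had a log2 fold change of -0.33 at 200 nM.

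Pfdn4 measured 18.4 and 19.2 CPM at 0 nM, 21.4 and 25.2 CPM at 50 nM and 9.49 and 8.90 CPM at 200 nM. It was called higher at 50 nM (0.31 ± 0.11, adjusted p = 0.0316) and lower at 200 nM (-1.03 ± 0.14, adjusted p = 5.71e-09). The call at 50 nM was lost without either 0 nM library (adjusted p = 0.156 and 0.0749) and without the 50 nM replicate 2 library (0.340). It is among the least abundant members, and its exons share 23.7% of their bases with the antisense gene Gm16796. Of the Pfdn2 exon bases, 30.8% are shared with Klhdc9 on the other strand. Within libraries, the summed CCT counts were 28.7 ± 0.453 times the summed counts of these 4 prefoldin genes at 0 nM and 19.4 ± 0.454 times at 200 nM (SD, n = 2). The 4 genes are not the whole complex, and Pfdn6 was not analysed here.

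Among the cytosolic HSP70 and HSP110 genes, 3 of 4 fell and the constitutive HSP70 Hspa8 did not. Hspa8 (HSC70) measured 1122 and 1099 CPM at 0 nM, 1212 and 1240 CPM at 100 nM and 1411 and 1409 CPM at 200 nM. The log2 fold change at 200 nM was 0.34 ± 0.03 (adjusted p = 3.08e-15), and with library size alone it was -0.04 (adjusted p = 0.215). Near-identical pseudogene copies of Hspa8 exist, so part of its counts may come from or be lost to them.

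Hspa4, an HSP110 that acts as an exchange factor of HSP70, measured 812 and 818 CPM at 0 nM and 413 and 407 CPM at 200 nM. At 200 nM it was at -0.99 ± 0.03 on the log2 scale (adjusted p = 6.63e-31), with all 200 nM libraries below all 0 nM libraries. Hsph1 (HSP105), of the same family, was at -0.97, and Hspa14, an HSP70 of the ribosome, at -0.82.

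The J proteins, which drive the HSP70 cycle, moved in both directions. Of 6 cytosolic members, 3 fell and 2 rose. Dnajc2, the J protein that works beside Hspa14 at the ribosome, fell furthest. It measured 215 and 214 CPM at 0 nM, 133 and 134 CPM at 100 nM and 62.3 and 68.3 CPM at 200 nM, a log2 fold change of -1.71 ± 0.05 (adjusted p = 3.60e-33). Dnaja2 was at -0.60 and Dnajc7 at -0.36. Nkiras2, on the other strand, covers 12.3% of the Dnajc7 exon bases and had a log2 fold change of 2.17.

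Dnajb6, known for holding back aggregation, rose late. It measured 32.2 and 32.9 CPM at 0 nM, 37.0 and 35.6 CPM at 100 nM and 51.0 and 52.9 CPM at 200 nM (log2 fold change 0.67 ± 0.08, adjusted p = 7.16e-11), and its first call was at 150 nM. Dnajb1 (HSP40) measured 74.0 and 70.8 CPM at 0 nM and 98.7 and 105 CPM at 200 nM. The change of 0.49 ± 0.06 on the log2 scale (adjusted p = 1.10e-10) was 0.11 with library size alone, and no longer called (adjusted p = 0.0642).

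Dnaja1 measured 249 and 241 CPM at 0 nM, 219 and 220 CPM at 100 nM and 259 and 252 CPM at 200 nM. It was below both ends of the dose range at 75 and at 100 nM, with log2 differences at 100 nM of -0.16 ± 0.04 from 0 nM and -0.22 ± 0.04 from 200 nM (adjusted p of the larger of both = 0.0239). At 200 nM it was not called (0.06 ± 0.04, adjusted p = 0.164). With library size alone it was at -0.32 there, and it was not called below both ends at any dose.

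The BAG exchange factors moved furthest apart. Bag1, which links HSP70 to the proteasome, measured 13.6 and 10.3 CPM at 0 nM, 12.4 and 14.3 CPM at 12.5 nM, 16.7 and 12.6 CPM at 25 nM and 17.6 and 18.7 CPM at 50 nM. It went on to 26.6 and 26.9 CPM at 75 nM, 32.5 and 29.9 CPM at 100 nM, 50.1 and 37.5 CPM at 150 nM and 57.7 and 71.4 CPM at 200 nM. From 50 nM every library lay above the 0 nM libraries, and at 200 nM the log2 fold change was 2.44 ± 0.17, or 5.42-fold (adjusted p = 4.24e-09). It was the largest rise of the 39 members.

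Bag2, an exchange factor known to inhibit the ubiquitin ligase CHIP, measured 268 and 267 CPM at 0 nM, 174 and 176 CPM at 100 nM and 75.3 and 77.5 CPM at 200 nM. Its log2 fold change was -1.81 ± 0.05 (adjusted p = 5.71e-35). The libraries of the 3 doses did not overlap. Per kilobase of exon, Bag2 measured 144 CPM and Bag1 8.83 CPM at 0 nM, against 41.1 CPM and 47.9 CPM at 200 nM. The order of both genes was thus reversed by 200 nM.

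**Figure D4:**
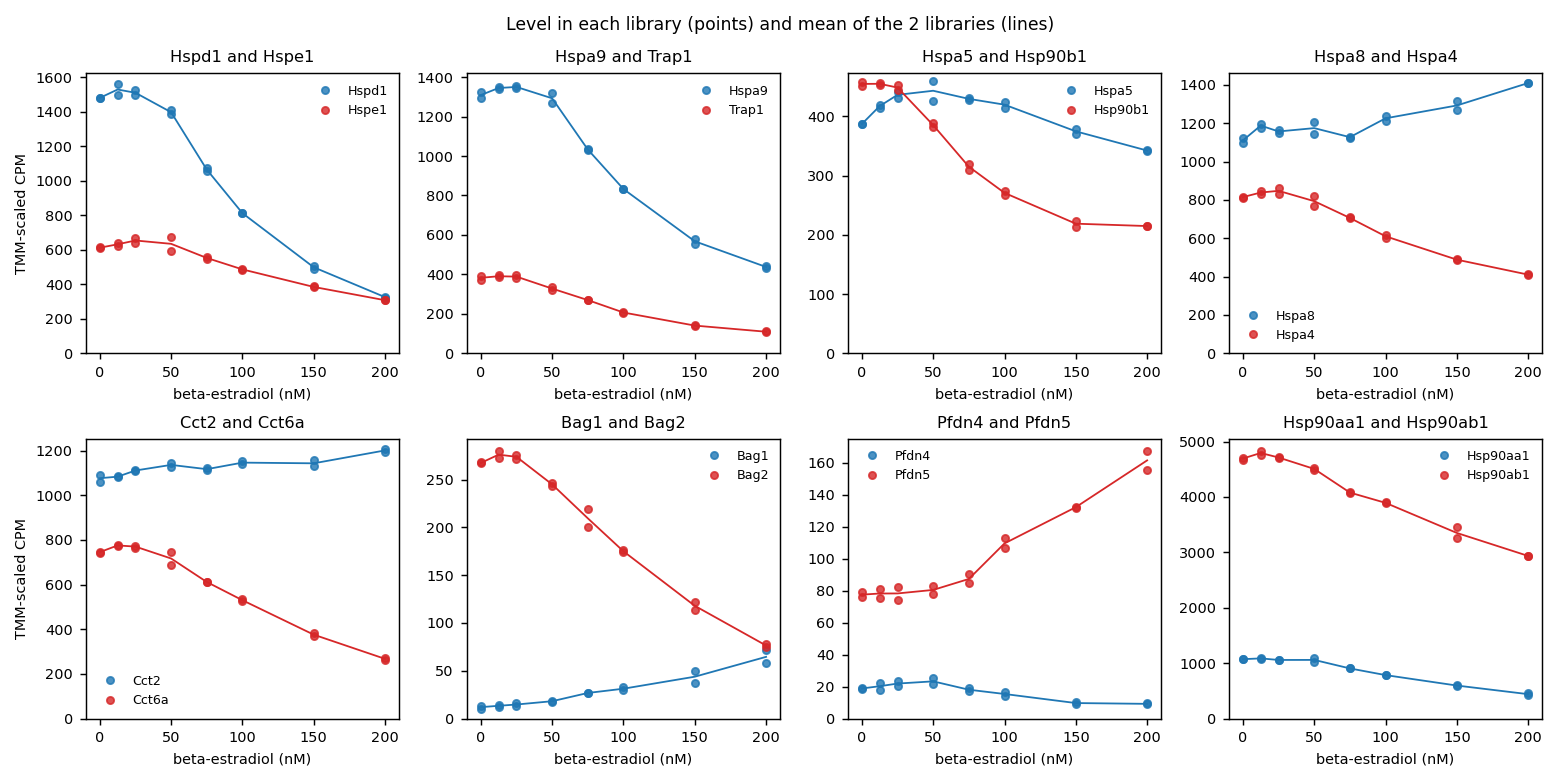
TMM-scaled CPM of 8 pairs of members in every library (points) with the mean of both libraries of a dose (lines), on axes that start at 0. Hspd1 and Hspe1 converge at 200 nM, Bag1 and Bag2 approach each other, and Hspa5 passes a maximum while Hsp90b1 falls and levels off.

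Both cytosolic HSP90 genes fell, the stress-inducible one further. Hsp90aa1 measured 1075 and 1068 CPM at 0 nM, 787 and 781 CPM at 100 nM and 427 and 453 CPM at 200 nM, a log2 fold change of -1.28 ± 0.03 (adjusted p = 2.70e-35). Hsp90ab1, the constitutive form, measured 4677 and 4712 CPM at 0 nM, 3901 and 3886 CPM at 100 nM and 2936 and 2934 CPM at 200 nM (-0.68 ± 0.03, adjusted p = 1.74e-28). For both genes, all 200 nM libraries lay below all 100 nM libraries, and these below all 0 nM libraries.

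Within libraries, Hsp90ab1 had 4.38 ± 0.0451 times the counts of Hsp90aa1 at 0 nM, 4.96 ± 0.0134 times at 100 nM and 6.68 ± 0.278 times at 200 nM (SD, n = 2). Per kilobase of exon, Hsp90ab1 ranked first among the 39 members at 0 nM (1863 CPM per kilobase) and at 200 nM (1165 CPM per kilobase). Near-identical pseudogene copies exist for Hsp90aa1.

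The HSP90 co-chaperones did not move together. Of 4 genes, Ptges3 and Stip1 fell, Ahsa1 rose and Cdc37 was not called at 200 nM. Ptges3 (p23), which holds the closed HSP90 state, measured 258 and 245 CPM at 0 nM and 107 and 106 CPM at 200 nM (-1.24 ± 0.07, adjusted p = 6.57e-12). Stip1 (HOP), which bridges HSP70 and HSP90, was at -0.94.

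Ahsa1 (AHA1), which speeds ATP use by HSP90, measured 488 and 512 CPM at 0 nM, 594 and 576 CPM at 50 nM, 707 and 693 CPM at 100 nM, 735 and 685 CPM at 150 nM and 663 and 654 CPM at 200 nM. All libraries from 50 nM on lay above those at 0 nM. It was called higher from 50 nM, reached 0.51 ± 0.03 at 150 nM (adjusted p = 1.26e-18) and fell in the last step, a call lost without the 150 nM replicate 1 library (adjusted p = 0.196). At 200 nM its log2 fold change was 0.40 ± 0.03 (adjusted p = 5.58e-15), and with library size alone it was 0.01 and not called (adjusted p = 0.675). On that scale Ahsa1 stood above both ends at 50, 75, 100 and 150 nM.

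Cdc37, which brings kinases to HSP90, measured 371 and 367 CPM at 0 nM, 328 and 332 CPM at 75 nM and 366 and 354 CPM at 200 nM. At 75 nM it was below both ends, by -0.16 ± 0.03 from 0 nM and -0.12 ± 0.04 from 200 nM (adjusted p of the larger of both = 0.0376). At 200 nM it was at -0.04 ± 0.04 (adjusted p = 0.361), and at -0.42 with library size alone, where it was called. On that scale it was not called below both ends at any dose.

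The mitochondrial chaperones fell most as a group. All 5 were lower at 200 nM, 4 of them at least 2-fold, with a median log2 fold change of -1.58. Hspd1 (HSP60), which forms the folding chamber of the matrix, measured 1481 and 1479 CPM at 0 nM, 1560 and 1497 CPM at 12.5 nM, 1525 and 1494 CPM at 25 nM and 1386 and 1408 CPM at 50 nM. It went on to 1072 and 1058 CPM at 75 nM, 812 and 812 CPM at 100 nM, 506 and 490 CPM at 150 nM and 328 and 322 CPM at 200 nM. From 50 nM on, the libraries of each dose lay below those of all lower doses. The fall of 4.55-fold (log2 fold change -2.19 ± 0.03, adjusted p = 3.45e-46) was the largest of the 39 members.

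Hspe1 (HSP10), the lid of the HSP60 chamber, lies head to head with Hspd1 and fell less. It measured 614 and 609 CPM at 0 nM, 488 and 484 CPM at 100 nM and 306 and 308 CPM at 200 nM (-0.99 ± 0.04, adjusted p = 7.73e-20). Within libraries, Hspd1 had 2.42 ± 0.0127 times the counts of Hspe1 at 0 nM, 1.67 ± 0.0121 times at 100 nM and 1.06 ± 0.0202 times at 200 nM (SD, n = 2). The ratios of these 3 doses did not overlap and do not depend on scaling. They are ratios of counts and not of levels per length, as Hspd1 has 2423 exon bases and Hspe1 774. Near-identical copies exist for both genes and are not rows of the table.

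Hspa9 (mortalin), the HSP70 of the matrix, measured 1293 and 1326 CPM at 0 nM and 441 and 434 CPM at 200 nM (-1.58 ± 0.03, adjusted p = 1.16e-40). Trap1, the mitochondrial HSP90, measured 372 and 393 CPM at 0 nM and 107 and 112 CPM at 200 nM (-1.81 ± 0.04, adjusted p = 1.00e-36). Dnaja3 (TID1), the J protein partner of Hspa9, was at -1.32. Per kilobase of exon, Hspd1 went from rank 4 of 39 (611 CPM per kilobase) to rank 13 (134 CPM per kilobase), while Hspa8 went from rank 9 (464 CPM per kilobase) to rank 2 (589 CPM per kilobase).

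The chaperones of the endoplasmic reticulum followed separate paths. Hspa5 (BiP), the HSP70 of this compartment, measured 388 and 386 CPM at 0 nM, 415 and 420 CPM at 12.5 nM, 442 and 431 CPM at 25 nM and 460 and 426 CPM at 50 nM. It went on to 428 and 431 CPM at 75 nM, 425 and 415 CPM at 100 nM, 379 and 370 CPM at 150 nM and 343 and 341 CPM at 200 nM. It was the only member called above both ends of the dose range, from 25 to 100 nM. At 50 nM it was 0.20 ± 0.03 above 0 nM and 0.37 ± 0.03 above 200 nM (adjusted p of the larger of both = 0.000129). At 200 nM it was lower than at 0 nM (-0.18 ± 0.03, adjusted p = 1.15e-05). With library size alone, Hspa5 was above both ends at 50 nM only.

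Hsp90b1 (GRP94), the HSP90 of the endoplasmic reticulum, measured 451 and 458 CPM at 0 nM, 389 and 382 CPM at 50 nM, 274 and 267 CPM at 100 nM, 224 and 214 CPM at 150 nM and 215 and 214 CPM at 200 nM. Its log2 fold change at 200 nM was -1.08 ± 0.04 (adjusted p = 9.83e-31). It fell in the 4 steps from 25 to 150 nM and was not called in the last step.

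Dnajb11 (ERdj3), a J protein of Hspa5, measured 109 and 103 CPM at 0 nM, 125 and 117 CPM at 50 nM and 119 and 117 CPM at 200 nM. Its call at 200 nM (0.15 ± 0.05, adjusted p = 0.0138) is weak. It was lost in DESeq2, with no filter on low counts, and without the 0 nM replicate 2 or the 200 nM replicate 1 library, and the sign turned with library size alone (-0.24). Within libraries, Hspa8 had 2.87 ± 0.0332 times the counts of Hspa5 at 0 nM, 2.62 ± 0.00115 times at 75 nM and 4.12 ± 0.0118 times at 200 nM (SD, n = 2).

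Hsf1, the heat shock factor, measured 71.8 and 73.7 CPM at 0 nM, 55.9 and 49.3 CPM at 100 nM and 36.2 and 38.8 CPM at 200 nM. Its log2 fold change was -0.95 ± 0.07 (adjusted p = 7.12e-17), and libraries of the 3 doses did not overlap. The heat-inducible HSP70 genes Hspa1a and Hspa1b, both near 0 counts in these libraries, did not pass the filter and were not tested.

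The dose at which a gene had covered the middle of its log2 change differed among the members. It was computed for the 13 members changed at least 2-fold at 200 nM, by interpolation with no test. Among the 11 lower ones the median was 113 nM, from 76.3 nM for Hsp90b1 to 124 nM for Bag2, where all 1754 genes lower by at least 2-fold had a median of 106 nM. Hspd1 was at 115 nM, with 115 nM and 116 nM from the replicate 1 and replicate 2 libraries alone. Trap1 was at 101 nM and Cct6a at 123 nM. Of the 2 higher ones, Bag1 was at 79.9 nM and Pfdn5 at 106 nM, where all 1986 higher genes had a median of 84.9 nM.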

How the data were processed

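The authors deposited raw counts per gene symbol for 16 libraries. The submitters' processing notes name STAR, bcl2fastq and mm10. For versions, the counting program, its annotation and any strand setting, the labels state nothing. From the counts, filterByExpr by dose kept 10080 of 23410 symbols, and edgeR 4.0.16 in R 4.3.3 (TMM, robust quasi-likelihood fit of all 16 libraries with dose as an 8-level factor, 8 residual degrees of freedom) gave the log2 fold changes. The standard error is the absolute log2 fold change divided by the square root of F. P-values were Benjamini-Hochberg adjusted over all genes tested in a contrast, with a threshold of 0.05. A gene was above or below both ends when the larger p of the contrasts with 0 and 200 nM passed after adjustment. Middle doses used log2 CPM with a prior count of 2. DESeq2 1.42.0, other scalings, filters, thresholds and left-out libraries were alternatives.

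Exon lengths and overlaps came from GENCODE M21 on GRCm38. Copies were transcripts at 95% identity or more over 50% or more of a member's longest transcript (blastn 2.17.0), found for Hsp90aa1, Hspa8, Hspd1 and Hspe1. Opposite-strand genes covered at least 10% of the exon bases of 7 members: Cct6a, Dnaja1, Dnajc7, Hsp90b1, Pfdn2, Pfdn4 and Tcp1. Log2 fold changes of these partners at 200 nM were -1.80 for Psph (Cct6a), -0.64 for Smu1 (Dnaja1) and 2.17 for Nkiras2 (Dnajc7). They were -0.93 for 1810014B01Rik (Hsp90b1) and -0.47 for Klhdc9 (Pfdn2), which was not called. Acat3 (Tcp1) and Gm16796 (Pfdn4) were not tested. Same-strand genes did so for Hspa14 (Gm45902, 17.9%) and Pfdn5 (Myg1, 11.9%). The members, the role groups and the other chaperone list were chosen with earlier results of these data known. Library values were given for the lowest and highest member of each role at 200 nM. The same was done for members called against most of their role and members above or below both ends. Of the other chaperone genes, 4 at each end with at least 20 CPM were named. Among these, library values were given for Dnajb2, means for the 4 lowest, and log2 fold changes alone for Dnajb9, Hscb and Dnajb14. Values of Hspa9 and Trap1 were added after they were seen. Replicates differed beyond counting noise, with chi-square per degree of freedom of 1.65 to 3.71, so none was a library deposited again.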

Additional observations from a re-analysis of the deposited data

How the results depend on the processing

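With library size alone, members called higher against 0 nM were 3 at 50 nM (13.3% of all genes on that scale), 2 at 75 nM (21.3%), 4 at 100 nM (24.3%), 3 at 150 nM (27.4%) and 3 at 200 nM (28%), and 20 were lower at 50 nM (23.1%). Members that rose were 1 from 50 to 75 nM (13.1%), 1 from 75 to 100 nM (9.71%) and 4 from 150 to 200 nM (11.6%). It put 2 members (Ahsa1 and Hspa5) above both ends and 1 below, Cct7 at 150 nM, while Dnaja1 and Cdc37 were no longer below. It left 18 of 98 other chaperone genes higher, and it moved the median middle dose over the 13 members from 111.2 to 110.6 nM. At 200 nM it reversed Cct2 (-0.22), Cct7 (-0.25), Hspa8 (-0.037), Dnaja1 (-0.32) and Dnajb11 (-0.24). Asking for a 1.5-fold change as well left 0 members higher at 25 nM. At 50 and 75 nM it left 1 higher and 0 lower, at 100 nM 1 higher and 6 lower, at 150 nM 2 higher and 18 lower, and at 200 nM 3 higher. DESeq2 called 1 rise from 50 to 75 nM, and a fit of only the 2 doses compared called 1 member higher at 12.5 nM. Leaving out 1 library gave 2 to 8 higher and 4 to 10 lower at 50 nM, 3 to 5 higher at 75 nM, 6 to 15 falls from 25 to 50 nM, 0 to 1 rises from 50 to 75 nM and 1 to 3 rises from 100 to 150 nM. With 1 library left in a dose, it is assumed to vary like the other doses. With the replicate number as a block, 28 members were lower and 9 higher at 200 nM, and no count moved by over 1.5 times. Same-numbered libraries showed no shared deviation in the counts, with correlations of -0.058 to 0.096 over 28 pairs of doses. Whether they were prepared together is not stated in the labels. Members above or below both ends were not refitted without single libraries. With 2 libraries a dose, small changes such as those up to 50 nM are the least certain.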

Other observations

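Of 110 further chaperone genes on the list, 98 were tested. At 200 nM, 49 were lower (50% of the 98, against 39.5% of all genes tested) and 33 higher (33.7%, against 40.5%), with a median log2 fold change of -0.24 against 0.02 over all genes tested. With library size alone 61 were lower and 18 higher, where 53.5% of all genes were lower and 28% higher. The counts of subgroups below are to be read against the same shares of all genes. Folding enzymes and chaperones of the endoplasmic reticulum other than the members were lower in 12 of 15 cases and higher in 2. Hyou1, the large HSP70 relative of this compartment, went from 107 CPM ± 4.73 to 33.1 CPM ± 1.35 (SD, n = 2), a log2 fold change of -1.69. The disulfide isomerase Pdia4 went from 61.3 CPM ± 0.896 to 19.0 CPM ± 1.44, also -1.69. Of 10 other mitochondrial chaperones and proteases 6 were lower and 3 higher, and prohibitin Phb went from 134 CPM ± 4.57 to 33.9 CPM ± 2.55 (-1.98).

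Cofactors of HSP70 and HSP90 were lower in 13 of 21 cases and higher in 7. Ppid (cyclophilin 40), an HSP90 partner, went from 259 CPM ± 1.82 to 41.3 CPM ± 1.70 (-2.65). The 27 other J proteins tested gave 12 higher (44.4%) and 10 lower (37%), near the shares of all genes tested. Without TMM, 9 of them were higher and 13 lower. Among them, Dnajb2 measured 18.1 and 19.4 CPM at 0 nM, 117 and 118 CPM at 100 nM and 309 and 306 CPM at 200 nM, a 16.4-fold rise (log2 fold change 4.04 ± 0.07, adjusted p = 5.51e-43) that exceeds that of any member. Dnajb9 of the endoplasmic reticulum rose by 1.73, Hscb, which serves iron-sulfur cluster assembly, by 1.32, and Dnajb14 by 1.21 on the log2 scale. Ahsp, the alpha globin chaperone, was not analysed here.

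Other helpers of the CCT ring and of prefoldin were higher in 4 of 7 cases and lower in 1, with a median log2 fold change of 0.34. Higher were Pdcl (1.14), Txndc9 (0.58), Vbp1 (0.44), itself a prefoldin subunit, and Pdrg1 (0.34), and lower was Pdcl3 (-0.78). With library size alone Pdcl (0.76) and Txndc9 (0.20) were still called higher, Vbp1 (0.06, adjusted p = 0.351) was not called, and Pdrg1 turned to -0.04 (adjusted p = 0.442). Of 5 tubulin cofactors, 2 were higher and 1 lower (median 0.13), against 0 higher and 4 lower with library size alone.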
